A study of Solanum lycopersicum with 24 samples.

Results

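The antioxidant enzymes of the tomato fruit were taken as the genes whose deposited description names a superoxide dismutase, a catalase, an ascorbate or glutathione peroxidase, a peroxiredoxin, a dehydroascorbate or monodehydroascorbate reductase, a glutathione or thioredoxin reductase, a GDP-mannose epimerase or an enzyme of L-galactose. These words matched 59 of the 34689 genes, and the rule itself uses no expression value. They comprised 9 superoxide dismutase genes, of which 1 is described as a copper chaperone, 6 catalase, 12 ascorbate peroxidase, 9 glutathione peroxidase, 6 peroxiredoxin and 5 thioredoxin reductase genes, 7 genes that recycle ascorbate or glutathione and 5 genes of ascorbate synthesis. Of the 59 genes, 54 passed the filter on low counts and were tested. The other 5 were 4 genes with no read in any of the 24 libraries (Solyc08g150122.1, Solyc02g032530.3, Solyc03g034203.1 and Solyc03g096700.3) and the 1-Cys peroxiredoxin gene Solyc03g096040.3, with 61 reads in all.

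RNA was sequenced from epicarp, the skin of the fruit, and from mesocarp, the flesh under it, in Solanum lycopersicum of the genotype MT-Aft/atv/hp2. The alleles Aft and atv let the fruit make purple anthocyanins, and hp2 heightens the response to light. All 8 groups carry these alleles, so no comparison with a plain red-fruited tomato is possible here. In each tissue, 3 libraries came from each of 4 conditions: flowers wrapped in aluminium foil for 30 days, with the fruit taken at once (0 d), after 2 d in light or after 5 d in light, and control fruit that developed for 30 days in light. Darkness and the foil came together, so the effect of darkness and that of the cover cannot be told apart. Fruit at 2 d and 5 d was also older, by those days, than fruit at 0 d and in control. No group stayed covered for those days, so days in light and fruit age cannot be told apart. The labels give a replicate number but do not say whether replicates were separate plants, so p-values measure the spread between these libraries. In bulk tissue, fewer cells of a type and less RNA per cell cannot be told apart.

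Superoxide, made where electrons leak from photosynthesis and respiration, is turned by superoxide dismutases into hydrogen peroxide. Catalases split that peroxide in peroxisomes without any reductant, whereas ascorbate peroxidases, glutathione peroxidases and peroxiredoxins reduce it with electrons from ascorbate or from thiols. Reductases then restore ascorbate, glutathione and thioredoxin, and in chloroplasts the electrons come from light-driven ferredoxin. Ascorbate itself, the vitamin C of the fruit, is built through GDP-mannose and L-galactose.

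Assigned reads ran from 18402751 to 23197867 per library. Libraries of 0 d fruit were the least alike: the correlation of log counts between replicates was 0.8712 to 0.9369 in epicarp at 0 d and 0.8744 to 0.9337 in mesocarp at 0 d, against 0.9517 to 0.9847 in the other 6 groups. The 4 cuticle genes summed to 243 to 8779 TPM in epicarp and 2.60 to 588 TPM in mesocarp, and the range overlapped through mesocarp at 0 d replicate 1, at 588 TPM, while the other 11 mesocarp libraries lay at 21.8 TPM or below. In epicarp the cuticle sum was 456 to 8779 TPM at 0 d, 243 to 330 TPM at 2 d, 565 to 2500 TPM at 5 d and 2425 to 4400 TPM in control. The 143 genes described as seed storage, oleosin or late embryogenesis proteins, of which 59 to 75 had no read in a group, summed in epicarp to 44905 to 122567 TPM at 0 d, 16984 to 20758 TPM at 2 d, 28327 to 45024 TPM at 5 d and 22471 to 30407 TPM in control. In mesocarp they summed to 52727 to 95608 TPM at 0 d, 14487 to 23891 TPM at 2 d, 33708 to 37961 TPM at 5 d and 35605 to 44529 TPM in control. Both sums thus differed between groups compared below, and their part in the members' changes was not tested. The 27 genes described as phloem or sieve element proteins summed to 47.5 to 166 TPM in epicarp and 162 to 773 TPM in mesocarp. The 5 ripening genes found summed to 166, 232 and 3459 TPM in epicarp at 0 d, so that replicate 3 stood apart, against 76.8 to 91.7 TPM in control epicarp. TPM here is per length of the whole gene interval, introns included. Folds below come from edgeR with its own scaling, and the median log2 TPM ratio of the members lay 0.26 below the fitted log2 fold in mesocarp at 5 d against control, the widest gap among the 12 comparisons.

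By count, the most antioxidant genes were called in epicarp at 2 d over 0 d. In epicarp, 30 of the 54 tested genes were higher at 2 d than at 0 d (55.6%, where 17.6% of all 19620 tested genes were higher) and 3 were lower (5.56%, against 19% of all genes). In mesocarp, 24 were higher at 2 d (44.4%, against 13.3%) and 1 was lower (1.85%, against 10.8%). The median log2 fold change of the members was 0.87 in epicarp and 0.69 in mesocarp, where the median of all tested genes was -0.07 and -0.05. All 24 genes that rose in mesocarp were among the 30 that rose in epicarp, which is 100% of the mesocarp list and 80.0% of the epicarp list. The same overlap was not computed over all tested genes, so it cannot be read as particular to this set. Leaving out each library in turn kept 24 of the 30 increases in epicarp, 21 of the 24 in mesocarp and none of the 4 decreases.

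At 5 d the picture was similar in direction and smaller in count. In epicarp, 28 genes were higher at 5 d than at 0 d (51.9%, against 14.3% of all genes) and 1 was lower (1.85%, against 14.2%). In mesocarp, 20 were higher (37.0%, against 11.1%) and 1 was lower (1.85%, against 8.09%). The members' median log2 fold change was 0.71 in epicarp and 0.46 in mesocarp, beside -0.09 and -0.02 for all genes. The comparisons at 2 d and 5 d share their 0 d libraries and are not independent of each other.

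The comparison of 0 d with control, where darkness and the cover came together, gave fewer calls, and most lay in the skin. At 0 d, 17 of the 54 genes were lower in epicarp than in control epicarp (31.5%, against 9.08% of all genes) and 1 was higher (1.85%, against 10.1%). In mesocarp, 1 gene was lower (1.85%, against 1.9%) and 2 were higher (3.70%, against 2.4%), where 4.3% of all genes changed in either direction. The median log2 fold change of the members was -0.38 in epicarp and -0.11 in mesocarp, where all genes had 0.04 and 0.01. With the spread taken from the compared groups alone, 10 of the 18 epicarp calls and 0 of the 3 mesocarp calls remained, and 7 of the 21 calls at 5 d over 0 d in mesocarp remained. The mesocarp count at 0 d against control was 6 without 0 d replicate 1.

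Fruit lit for 5 d was also set against fruit that had never been covered. After 5 d, 23 of 54 genes were higher in mesocarp than in control mesocarp (42.6%, against 12.6% of all genes) and 2 were lower (3.70%, against 7.71%). In epicarp, 11 were higher at 5 d than in control (20.4%, against 8.42%) and 1 was lower (1.85%, against 6.51%). Of these calls, 16 of 25 in mesocarp and 4 of 12 in epicarp held without each library in turn. The epicarp count ranged from 4 to 10 when single libraries were left out: it was 5, 4, 5, 5 and 6 without 5 d replicate 1, 5 d replicate 2 and control replicates 1, 2 and 3. The mesocarp count was 16 without 5 d replicate 3. The difference between the tissues in this comparison was not tested.

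**Figure D1:**
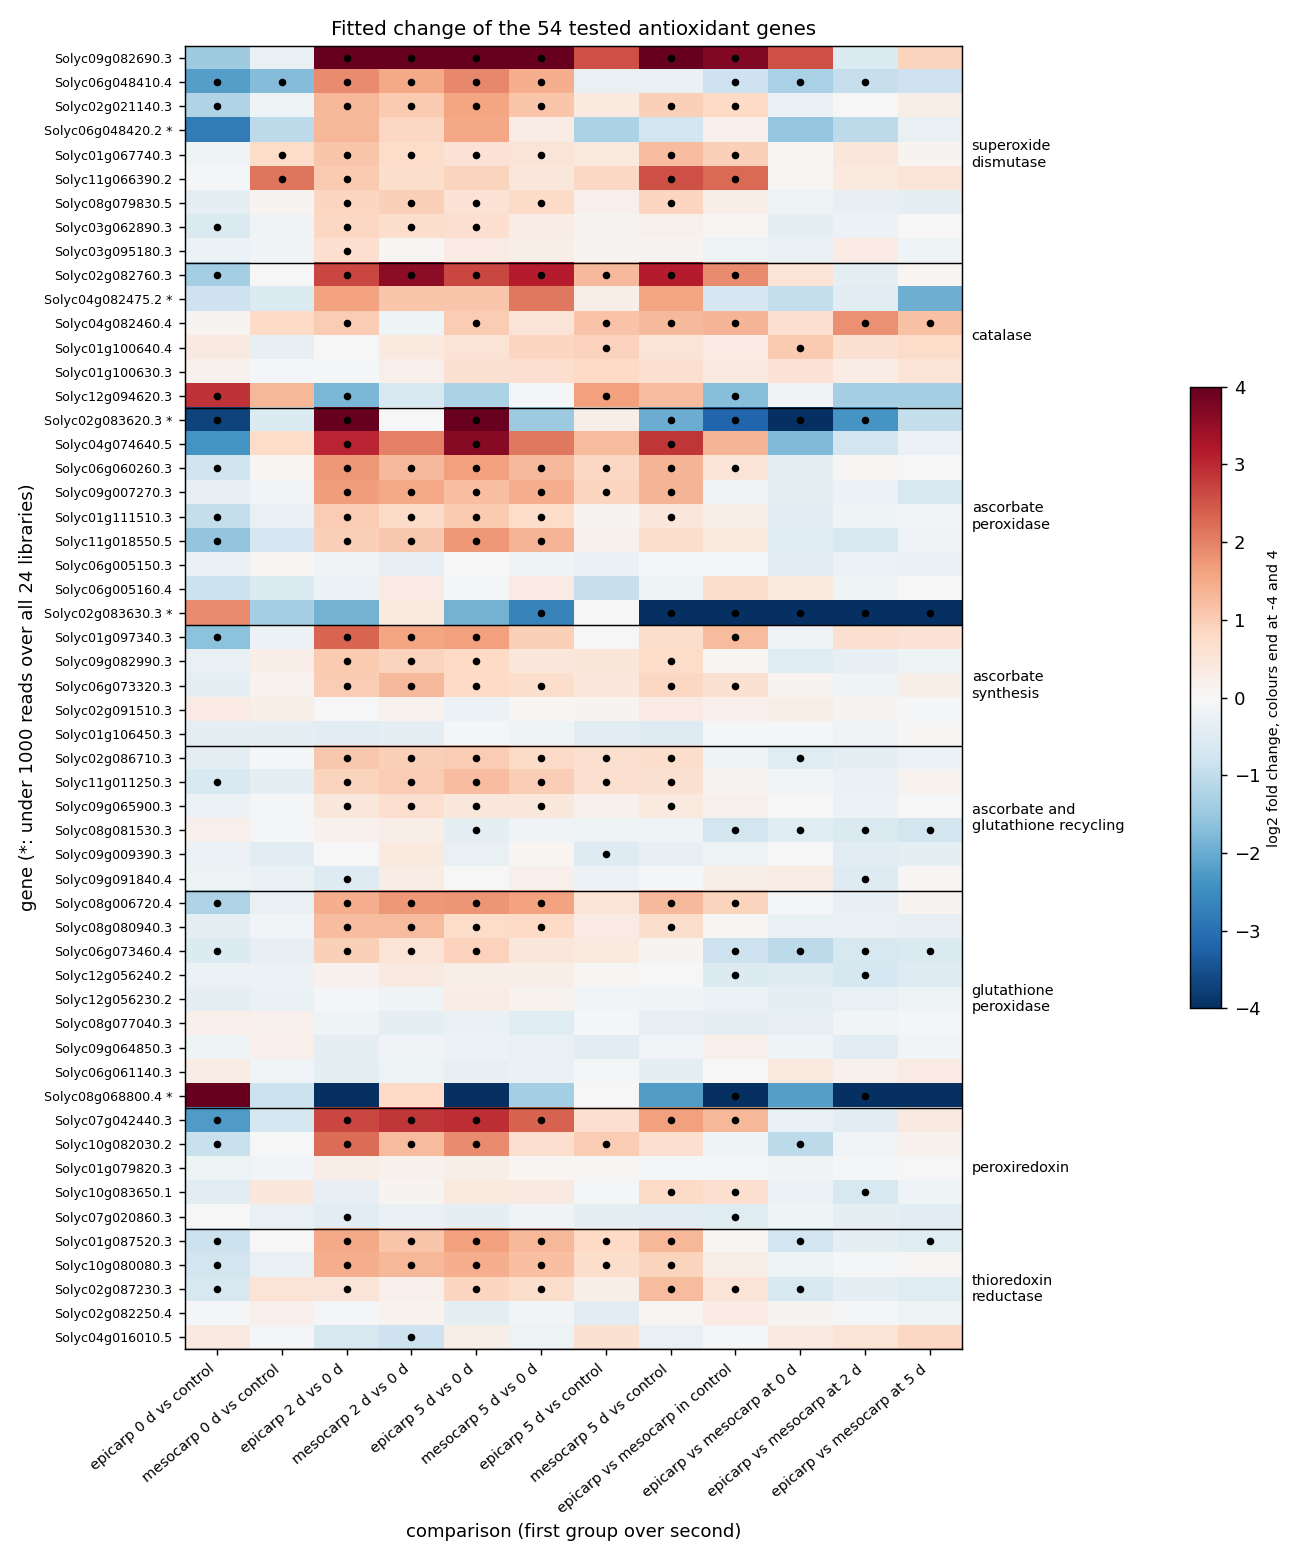
Fitted log2 fold changes (colour) of the 54 tested genes (rows, by role) in 12 comparisons (columns, first group over second), with a dot where the edgeR adjusted p was below 0.05. The 4 columns of 2 d or 5 d over 0 d hold 30, 24, 28 and 20 dots on red cells, and a star marks genes with under 1000 reads in all, whose colours are unreliable.

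Superoxide dismutase transcripts differed widely between dark-grown and lit fruit. The gene Solyc09g082690.3, described only as superoxide dismutase (SL4.0 chromosome 9, 64511911 to 64513970, minus strand), had few reads in some dark-grown fruit and was the highest of its class at 2 d. In epicarp it had 1.84, 35.2 and 311 TPM at 0 d, 2456, 2169 and 1673 TPM at 2 d, 1767, 1851 and 1339.6 TPM at 5 d, and 313, 331 and 223 TPM in control epicarp. In mesocarp it had 0.326, 9.16 and 47.03 TPM at 0 d, 2842, 2573 and 3248 TPM at 2 d, 510.4, 771 and 1322 TPM at 5 d, and 34.3, 16.04 and 23.7 TPM in control mesocarp. No library at 2 d or 5 d overlapped with those at 0 d in either tissue, and within 0 d the libraries differed by over 2 orders of magnitude, with replicate 1 lowest and replicate 3 highest in both tissues.

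The fitted log2 fold change of this gene at 2 d over 0 d was 4.37 ± 1.24 (SE, adjusted p = 0.0097) in epicarp and 7.47 ± 1.43 (SE, adjusted p = 8.45e-04) in mesocarp. At 5 d over 0 d it was 4.0 ± 1.21 (SE, adjusted p = 0.0185) in epicarp and 5.68 ± 1.32 (SE, adjusted p = 0.00509) in mesocarp. With the spread taken from the compared groups alone, the epicarp call at 2 d was lost (adjusted p = 0.0847), as were those at 5 d in epicarp (adjusted p = 0.137) and mesocarp (adjusted p = 0.0821), and the epicarp call at 5 d was also lost without 0 d replicate 2 (adjusted p = 0.0717). Mesocarp at 5 d also stood above control mesocarp by 5.37 ± 1.30 (SE, adjusted p = 0.00671). The gene shares 513 bases with the Dymeclin gene Solyc09g082680.3 on the other strand. That neighbour had 588 to 3172 reads per library, and its lowest values, 588 to 630 reads, were in mesocarp at 2 d, where the superoxide dismutase gene had 40040 to 47852 reads.

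The iron superoxide dismutase gene Solyc06g048410.4 belongs to the type that works in plastids. Its transcript was low in the dark in both tissues. Its epicarp libraries held 89.4, 78.4 and 64.96 TPM at 0 d, 268, 234 and 287 TPM at 2 d, 236, 305 and 273 TPM at 5 d, and 475, 185 and 366 TPM in control epicarp. Its mesocarp libraries held 265, 161 and 141 TPM at 0 d, 449.9, 406 and 557 TPM at 2 d, 395, 432 and 583 TPM at 5 d, and 827, 549 and 651 TPM in control mesocarp. The 0 d libraries lay below all controls in both tissues. At 0 d it was lower than in control by a log2 fold change of -2.20 ± 0.31 (SE, adjusted p = 8.95e-05) in epicarp and -1.74 ± 0.30 (SE, adjusted p = 0.00426) in mesocarp, where the call was lost with the spread of those 2 groups alone (adjusted p = 0.202). At 2 d over 0 d it rose by 1.88 ± 0.30 (SE, adjusted p = 8.67e-05) in epicarp and 1.52 ± 0.30 (SE, adjusted p = 0.00103) in mesocarp. It was the single antioxidant gene that passed the test as lower in dark-grown flesh than in its control.

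Copper-zinc enzymes work in the cytosol and in plastids. Solyc01g067740.3, described as Superoxide dismutase [Cu-Zn] 1, was the class's second gene by level. The epicarp values were 248, 236 and 407 TPM at 0 d, 564, 562 and 624 TPM at 2 d, 474, 397 and 342 TPM at 5 d, and 313, 336 and 313 TPM in control epicarp. The mesocarp values were 242, 257 and 345 TPM at 0 d, 407, 426 and 379.7 TPM at 2 d, 383, 398 and 310.5 TPM at 5 d, and 163, 212 and 179 TPM in control mesocarp. It rose at 2 d over 0 d by 1.12 ± 0.18 (SE, adjusted p = 7.22e-05) in epicarp and by 0.73 ± 0.18 (SE, adjusted p = 0.00507) in mesocarp, where the spread of the 2 groups alone gave an adjusted p of 0.0589. In mesocarp it was also higher at 0 d than in control, by 0.72 ± 0.18 (SE, adjusted p = 0.0264), a call lost without 0 d replicate 3 (adjusted p = 0.094), control replicate 1 (adjusted p = 0.0886) or control replicate 3 (adjusted p = 0.073).

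The gene Solyc11g066390.2, superoxide dismutase 3, was higher in covered than in control flesh. Epicarp libraries gave 31.9, 22.1 and 20.3 TPM at 0 d, 49.5, 41.2 and 50.4 TPM at 2 d, 28.8, 48.8 and 51.7 TPM at 5 d, and 20.6, 35.1 and 19.5 TPM in control epicarp. Mesocarp libraries gave 29.2, 23.1 and 19 TPM at 0 d, 20.6, 30.1 and 50.2 TPM at 2 d, 13.7, 24.9 and 49.4 TPM at 5 d, and 5.07, 7.47 and 5.04 TPM in control mesocarp. The 9 mesocarp libraries of covered fruit stood above the 3 controls, so that the log2 fold change was 2.14 ± 0.40 (SE, adjusted p = 0.00646) at 0 d and 2.58 ± 0.41 (SE, adjusted p = 1.92e-04) at 5 d against control mesocarp. With the spread of the compared groups alone, the call at 0 d was lost (adjusted p = 0.0709).

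In this class, 8 of 9 genes passed the test as higher at 2 d than at 0 d in epicarp and 6 of 9 in mesocarp, where 17.6% and 13.3% of all tested genes were higher. Besides those above, Solyc03g062890.3, described as Superoxide dismutase [Cu-Zn], rose at 2 d by 0.81 ± 0.14 (SE, adjusted p = 1.57e-04) in epicarp and 0.70 ± 0.14 (SE, adjusted p = 0.00111) in mesocarp. Solyc03g095180.3, described as Superoxide dismutase, rose at 2 d in epicarp by 0.68 ± 0.23 (SE, adjusted p = 0.0242), a call lost without 0 d replicate 3 (adjusted p = 0.116), 2 d replicate 1 (adjusted p = 0.0766) or 2 d replicate 3 (adjusted p = 0.0707) and with the spread of the 2 groups alone (adjusted p = 0.106). The gene Solyc02g021140.3, described as superoxide dismutase, rose at 2 d by 1.33 ± 0.18 (SE, adjusted p = 1.48e-05) in epicarp and 1.05 ± 0.18 (SE, adjusted p = 2.80e-04) in mesocarp. The copper chaperone gene Solyc08g079830.5, whose product inserts copper into copper-zinc enzymes, rose at 2 d by 0.85 ± 0.18 (SE, adjusted p = 0.00104) in epicarp and 0.95 ± 0.18 (SE, adjusted p = 6.66e-04) in mesocarp. It overlaps the oppositely oriented Nudix hydrolase gene Solyc08g079820.3 by 488 bases, and reads in that stretch are uncertain, since the sources used here do not give the strand setting. The class member not called at 2 d in either tissue, Solyc06g048420.2, lies 22185 bases from the iron gene and had 139 reads in all libraries together.

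**Figure D2:**
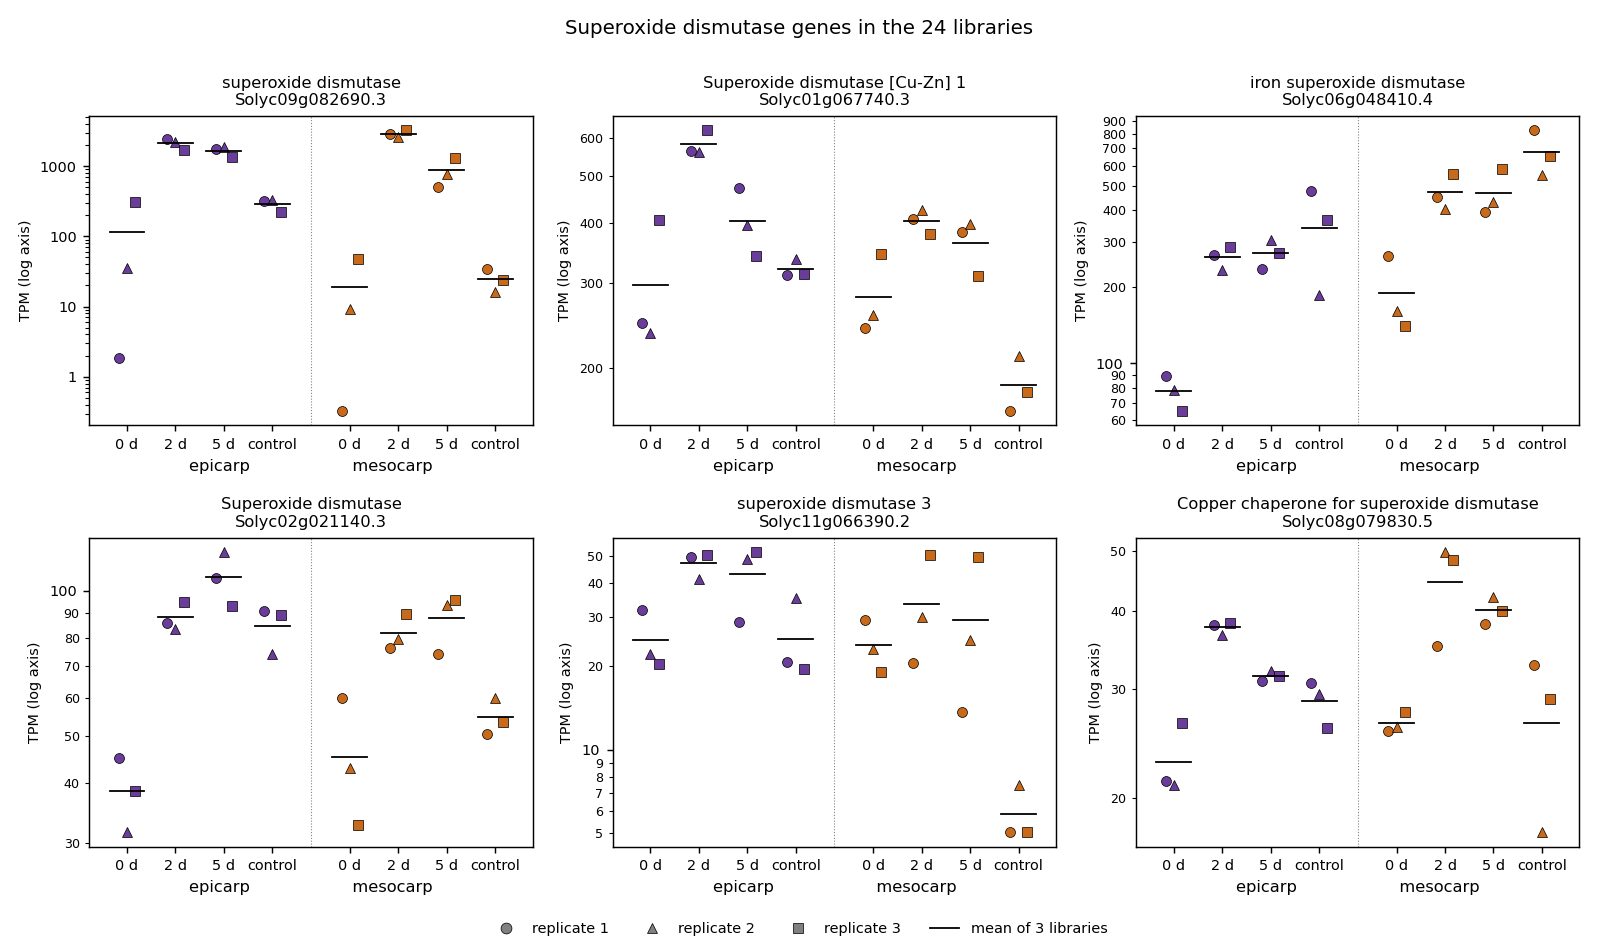
TPM on a log axis of 6 superoxide dismutase genes in every library (symbols by replicate, black bars for the mean of 3 libraries), for epicarp and mesocarp at 0 d, 2 d, 5 d and in control. In the first panel both tissues reach 1673 to 3248 TPM at 2 d, against 0.326 to 311 TPM at 0 d.

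In epicarp a pair of catalase genes was called in opposite directions at 0 d against control and at 2 d over 0 d, and in the same direction at 5 d against control. Solyc12g094620.3 was the most abundant antioxidant transcript by mean TPM over the 24 libraries. In the skin its level was 765, 2327 and 4865 TPM at 0 d, 781, 622 and 601 TPM at 2 d, 1345, 852 and 804 TPM at 5 d, and 298, 258 and 456 TPM in control epicarp. In the flesh its level was 1125, 3161 and 4285 TPM at 0 d, 1870.4, 1731 and 1176 TPM at 2 d, 2249.8, 2373 and 2712 TPM at 5 d, and 887, 1387 and 1396 TPM in control mesocarp. Epicarp at 0 d lay above all its controls, and it also held the widest spread, with replicate 3 more than 6 times replicate 1.

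At 0 d this catalase gene was higher than in control epicarp by a log2 fold change of 2.90 ± 0.50 (SE, adjusted p = 7.04e-04), the single increase among the members in dark-grown skin. With the spread of those 2 groups alone the call was lost (adjusted p = 0.0634). It was lower at 2 d than at 0 d in epicarp by -1.84 ± 0.48 (SE, adjusted p = 0.00604), a call lost without 0 d replicate 3 (adjusted p = 0.0568) and with the spread of those groups alone (adjusted p = 0.0725). In epicarp at 0 d, ripening genes moved with this catalase gene in part. The sum of the 5 was 3459 TPM in the replicate 3 that held 4865 TPM of catalase, against 166 TPM in replicate 1. Of those 3459 TPM, 2763 TPM came from E8 (Solyc09g089580.4). In replicate 2, the ripening sum was 232 TPM beside 2327 TPM of catalase, and E8 made 197 TPM of it. NOR (Solyc10g006880.3) had 0.0467, 2.85 and 197 TPM in replicates 1, 2 and 3, and PG2a (Solyc10g080210.2) had 0, 10.1 and 302 TPM. ACS2 (Solyc01g095080.3) had 0.0455, 2.15 and 32.9 TPM, and PSY1 (Solyc03g031860.3) had 42.0, 20.3 and 164 TPM. In mesocarp at 0 d the sum was 2331, 2186 and 3039 TPM beside 1125, 3161 and 4285 TPM of catalase. E8 made 2291, 2122 and 2666 TPM of that sum. There NOR had 1.02, 5.86 and 36.3 TPM, and PG2a had 0, 0.599 and 6.97 TPM. ACS2 had 0.0904, 1.23 and 28.9 TPM, and PSY1 had 38.7, 56.5 and 301 TPM. In control mesocarp the ripening sum was 1554 to 2943 TPM beside 887 to 1396 TPM of catalase. The part of ripening in this result was not tested. At 5 d the catalase gene was still above control epicarp, by 1.63 ± 0.48 (SE, adjusted p = 0.0292), a call lost without 5 d replicate 1 (adjusted p = 0.129), 5 d replicate 2 (adjusted p = 0.055), control replicate 1 (adjusted p = 0.101) or control replicate 2 (adjusted p = 0.113). In mesocarp the change at 0 d against control did not pass the test (1.34 ± 0.48 (SE, adjusted p = 0.119)).

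The ethylene-responsive catalase gene Solyc02g082760.3 was lower at 0 d than in control in skin. In both tissues it was higher at 2 d and 5 d than at 0 d. Skin libraries showed 28.6, 21.9 and 37.8 TPM at 0 d, 188, 159 and 160.0 TPM at 2 d, 128, 209.8 and 173 TPM at 5 d, and 75.4, 73.2 and 68.1 TPM in control epicarp. Flesh libraries showed 19.3, 24.9 and 15.7 TPM at 0 d, 230.1, 145 and 252 TPM at 2 d, 74.9, 168 and 232 TPM at 5 d, and 16.8, 26.5 and 21.8 TPM in control mesocarp. In each tissue the 2 d and 5 d libraries did not overlap with those at 0 d. It rose at 2 d over 0 d by 2.66 ± 0.32 (SE, adjusted p = 4.10e-06) in epicarp and 3.59 ± 0.33 (SE, adjusted p = 3.19e-07) in mesocarp, and at 5 d by 2.66 ± 0.32 (SE, adjusted p = 5.97e-06) in epicarp and 3.13 ± 0.33 (SE, adjusted p = 2.29e-06) in mesocarp. Against control it was lower at 0 d in epicarp by -1.36 ± 0.31 (SE, adjusted p = 0.00474), while in mesocarp the difference was 0.00 ± 0.30 (SE, adjusted p = 1). At 5 d it was above the control by 1.29 ± 0.31 (SE, adjusted p = 0.00828) in epicarp and 3.13 ± 0.33 (SE, adjusted p = 2.65e-06) in mesocarp.

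Of the other catalase genes, Solyc04g082460.4 was higher in mesocarp at 5 d than in control by 1.30 ± 0.35 (SE, adjusted p = 0.0128). It was also called higher in epicarp at 5 d against control and at 2 d and 5 d over 0 d. Each of these epicarp calls was lost when some single libraries were left out. At 5 d against control, 4 of the 6 catalase genes were called higher in epicarp and 2 in mesocarp (against 8.42% and 12.6% of all genes). The annotated gene Solyc01g100630.3 is an interval of 159 bases, 1015 bases before Solyc01g100640.4. It was the second of the class by mean level. In epicarp it had 82.5, 188 and 205 TPM at 0 d, 125, 136 and 147 TPM at 2 d, 249, 219 and 206 TPM at 5 d, and 108, 176 and 120.4 TPM in control epicarp. In mesocarp it had 53.2, 128 and 133 TPM at 0 d, 133, 93.3 and 85.2 TPM at 2 d, 118, 171 and 160.3 TPM at 5 d, and 96.9, 152 and 101 TPM in control mesocarp. Epicarp at 5 d lay above control epicarp, above mesocarp at 5 d and narrowly above epicarp at 0 d (at least 205.86 TPM, against at most 204.78 TPM). In the other comparisons the groups overlapped, and no comparison called it.

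**Figure D3:**
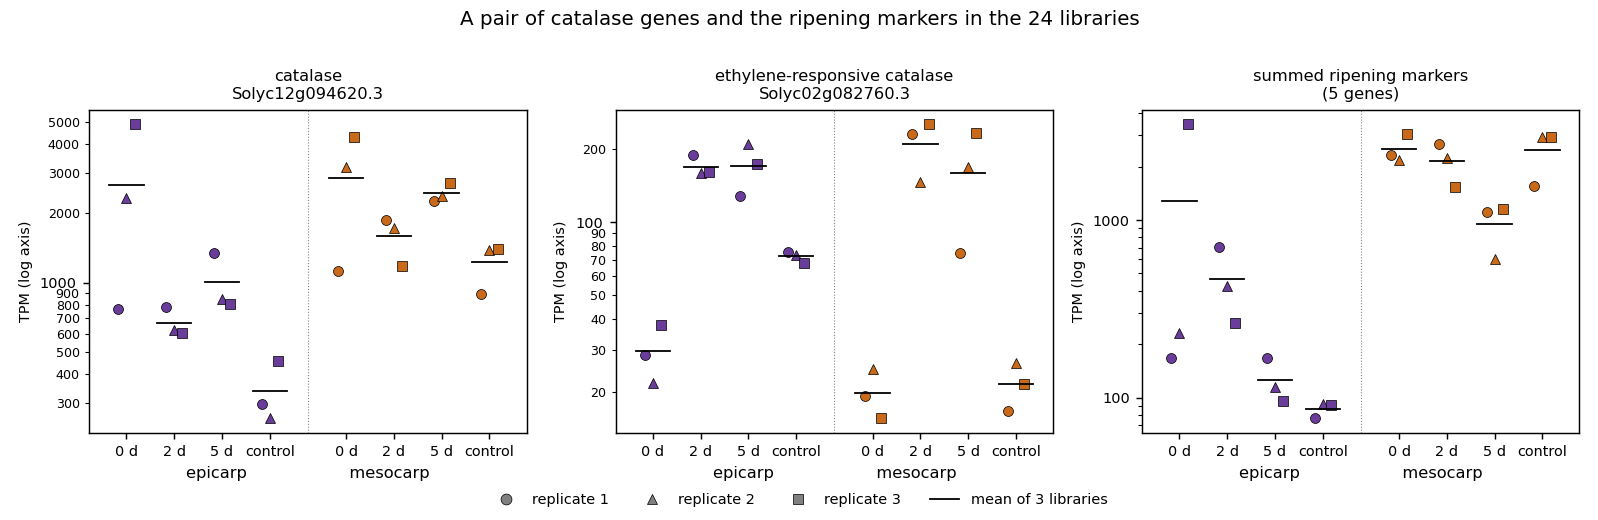
TPM on a log axis of the 2 catalase genes with the largest called changes and of the summed 5 ripening genes, in every library (symbols by replicate, black bars for the mean of 3). The first gene is highest in epicarp at 0 d replicate 3, at 4865 TPM, where the ripening sum is 3459 TPM, and the second has at most 37.8 TPM in the 0 d libraries.

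Ascorbate peroxidases take electrons from ascorbate to reduce hydrogen peroxide, and separate genes serve the cytosol, the stroma and the thylakoid. The class split by gene. Solyc09g007270.3, described as ascorbate peroxidase, had the highest mean level. Its epicarp libraries held 178, 195 and 359.6 TPM at 0 d, 715, 663 and 719.9 TPM at 2 d, 563, 499.7 and 471 TPM at 5 d, and 267, 339 and 278 TPM in control epicarp. Its mesocarp libraries held 205, 230.0 and 495 TPM at 0 d, 673, 811 and 830.2 TPM at 2 d, 815, 729 and 767 TPM at 5 d, and 407, 249 and 411 TPM in control mesocarp. The 2 d libraries stood above all 0 d libraries in both tissues. It rose at 2 d by 1.66 ± 0.29 (SE, adjusted p = 1.68e-04) in epicarp and 1.52 ± 0.29 (SE, adjusted p = 6.60e-04) in mesocarp, and it stood above control mesocarp at 5 d by 1.36 ± 0.28 (SE, adjusted p = 0.00218).

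The gene for cytosolic ascorbate peroxidase 1, Solyc06g005160.4, was nearly as abundant and passed the test in none of the 12 comparisons. The epicarp values were 582, 282 and 305 TPM at 0 d, 289.8, 286 and 335 TPM at 2 d, 274, 334 and 430.5 TPM at 5 d, and 809, 592 and 621 TPM in control epicarp. The mesocarp values were 449.7, 249 and 185 TPM at 0 d, 302, 343 and 326 TPM at 2 d, 296, 365 and 351 TPM at 5 d, and 628, 295 and 450.3 TPM in control mesocarp. Epicarp at 0 d and at 5 d lay below all control epicarp libraries, and the mesocarp groups overlapped, without a call. The log2 fold change at 2 d over 0 d was -0.23 ± 0.32 in epicarp and 0.33 ± 0.32 in mesocarp (SE). Its neighbour Solyc06g005150.3, 9587 bases away, was likewise called in none and stayed between 83.1 and 173 TPM in all libraries.

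The 2 genes described as stromal ascorbate peroxidase, the plastid form, both rose after the cover came off. Solyc06g060260.3 had 14.4, 10.4 and 16.2 TPM at 0 d, 38.6, 39.1 and 45.2 TPM at 2 d, 41, 44.6 and 31.5 TPM at 5 d and 24.6, 21.9 and 22.02 TPM in control epicarp. Relative to 0 d, it rose at 2 d by 1.72 ± 0.17 (SE, adjusted p = 3.31e-07) in epicarp and 1.30 ± 0.17 (SE, adjusted p = 1.38e-05) in mesocarp, and at 5 d it was above control by 0.83 ± 0.16 (SE, adjusted p = 0.00272) in epicarp and 1.35 ± 0.17 (SE, adjusted p = 1.48e-05) in mesocarp. Solyc11g018550.5 rose at 5 d over 0 d by 1.75 ± 0.32 (SE, adjusted p = 4.20e-04) in epicarp and 1.37 ± 0.32 (SE, adjusted p = 0.00447) in mesocarp (adjusted p = 0.0967 with the spread of those 2 groups alone), and was lower at 0 d than in control epicarp by -1.59 ± 0.32 (SE, adjusted p = 0.00212). The gene Solyc01g111510.3 was also lower at 0 d than in control epicarp, by -0.95 ± 0.16 (SE, adjusted p = 4.38e-04), and rose at 2 d by 1.01 ± 0.16 (SE, adjusted p = 5.77e-05) in epicarp and 0.76 ± 0.16 (SE, adjusted p = 0.0015) in mesocarp. The 3 genes described as thylakoid-type (L-ascorbate peroxidase T) had no read, which bounds each at 3 reads per library. Their intervals span 440, 1070 and 813 bases, against 10710 and 6600 bases for the stromal genes. No read in these short intervals does not show that thylakoid-type transcript was absent.

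The largest tissue differences of the class lay in 2 neighbouring genes of few reads. Solyc02g083630.3 (SL4.0 chromosome 2, 44967223 to 44969529) had 1 read over all 12 epicarp libraries, in 0 d replicate 1. Mesocarp reads numbered 38, 42 and 19 reads at 0 d, 14, 37 and 52 reads at 2 d, 5, 1 and 8 reads at 5 d, and 53, 120 and 62 reads in control mesocarp. Taking 3 reads over the group as the floor, it was at least 82.2-fold lower in control epicarp than in control mesocarp, at least 36.3-fold lower in epicarp at 2 d than in mesocarp at 2 d, and at least 4.54-fold lower in epicarp at 5 d than in mesocarp at 5 d. These bounds take the mesocarp reads as exact, and at 5 d those were only 14 reads. The call at 5 d (adjusted p = 0.0184) was lost when paired by replicate (adjusted p = 0.0504) and without epicarp replicate 2 (adjusted p = 0.054), epicarp replicate 3 (adjusted p = 0.0565) or mesocarp replicate 3 (adjusted p = 0.0533). It was also lower in mesocarp at 5 d than in control mesocarp (-4.01 ± 0.85 (SE, adjusted p = 0.00498), 14 reads against 235).

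Its neighbour Solyc02g083620.3 had 1, 0 and 0 reads at 0 d, 14, 3 and 6 reads at 2 d, 3, 7 and 11 reads at 5 d, and 5, 5 and 9 reads in control epicarp. Reads in mesocarp were 71, 27 and 25 reads at 0 d, 25, 52 and 29 reads at 2 d, 19, 9 and 13 reads at 5 d, and 52, 63 and 59 reads in control mesocarp. Skin had fewer reads than flesh in each condition. The pair lies 1704 bases apart, and how the authors' counting divided reads between them is uncertain. The 27 phloem genes, of which 8 to 18 had no read in a group, summed higher in mesocarp than in epicarp in each condition, and their part in these tissue differences was not tested. Over 957 bases Solyc02g083630.3 overlaps the oppositely oriented gene Solyc02g083640.5, which had at most 16 reads in a library.

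Of the 5 genes of ascorbate synthesis, 3 rose at 2 d in each tissue, beside 17.6% of all genes in epicarp and 13.3% in mesocarp. GDP-L-galactose phosphorylase makes the first committed step of the pathway, and its gene Solyc06g073320.3 was the most abundant of the 5. Epicarp libraries gave 409.8, 576 and 629 TPM at 0 d, 1038, 1003 and 923 TPM at 2 d, 902, 910.4 and 805 TPM at 5 d, and 612, 722 and 685 TPM in control epicarp. Mesocarp libraries gave 534, 569 and 373 TPM at 0 d, 1099.5, 991 and 1039.9 TPM at 2 d, 526, 714 and 919.7 TPM at 5 d, and 349, 641 and 481 TPM in control mesocarp. In each tissue the 2 d libraries stood above those at 0 d. The log2 fold change at 2 d over 0 d was 1.01 ± 0.21 (SE, adjusted p = 0.00104) in epicarp and 1.28 ± 0.21 (SE, adjusted p = 2.15e-04) in mesocarp, and at 5 d it was 0.81 ± 0.21 (SE, adjusted p = 0.00707) in epicarp. The other gene with this description, Solyc02g091510.3, was called in no comparison and ranged from 25.2 to 46.9 TPM.

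GDP-mannose epimerase makes the substrate of that step. Solyc01g097340.3 had the larger change of the 2 epimerase genes. In the skin its level was 64.9, 23.9 and 16.1 TPM at 0 d, 157, 155 and 171 TPM at 2 d, 82.8, 102 and 121 TPM at 5 d, and 125, 98.4 and 87.7 TPM in control epicarp. In the flesh its level was 62.1, 35.1 and 17.3 TPM at 0 d, 85.8, 90.03 and 119 TPM at 2 d, 42.8, 69.9 and 86.6 TPM at 5 d, and 51.1, 44.9 and 48.5 TPM in control mesocarp. The 0 d libraries differed by about 4 times within a tissue, and in each tissue replicate 1 was the highest and replicate 3 the lowest. The increase at 2 d over 0 d was 2.33 ± 0.44 (SE, adjusted p = 4.67e-04) in epicarp and 1.56 ± 0.43 (SE, adjusted p = 0.0129) in mesocarp. The mesocarp call was lost without 0 d replicate 2 (adjusted p = 0.0514), 0 d replicate 3 (adjusted p = 0.0563) or 2 d replicate 3 (adjusted p = 0.0586). The second epimerase gene, Solyc09g082990.3, rose at 2 d by 1.06 ± 0.18 (SE, adjusted p = 1.73e-04) in epicarp and 0.90 ± 0.18 (SE, adjusted p = 0.00125) in mesocarp. L-galactose dehydrogenase, a later enzyme encoded by Solyc01g106450.3, was called in none of the 12 comparisons and had a log2 fold change of -0.45 ± 0.19 (SE) at 2 d over 0 d in epicarp.

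Ascorbate that has given up electrons is returned by monodehydroascorbate and dehydroascorbate reductases, the second of which draws on glutathione. Here Solyc09g009390.3, a monodehydroascorbate reductase gene, had the highest mean level. Skin libraries showed 102, 73.6 and 106 TPM at 0 d, 87.95, 74.7 and 89.3 TPM at 2 d, 64.9, 72.5 and 75.5 TPM at 5 d, and 109, 105 and 104 TPM in control epicarp. Flesh libraries showed 115, 76.5 and 91.8 TPM at 0 d, 137, 96.7 and 91.9 TPM at 2 d, 79.1, 96.6 and 96.7 TPM at 5 d, and 132, 152 and 127 TPM in control mesocarp. At 5 d it was below control epicarp by -0.52 ± 0.16 (SE, adjusted p = 0.0341), a call lost when any 1 of the 6 libraries was left out (adjusted p between 0.0545 and 0.127). Its groups overlapped between 0 d and 2 d, with a log2 fold change of -0.02 ± 0.16 in epicarp and 0.40 ± 0.16 in mesocarp (SE).

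The monodehydroascorbate reductase gene Solyc02g086710.3 did rise. In epicarp it had 18, 18.8 and 27.1 TPM at 0 d, 39.9, 38.8 and 42.5 TPM at 2 d, 35.2, 43.02 and 40.2 TPM at 5 d, and 26.2, 27.1 and 26.2 TPM in control epicarp. In mesocarp it had 25.9, 28.4 and 33.5 TPM at 0 d, 52.2, 48.2 and 46.97 TPM at 2 d, 37.1, 44.6 and 53.4 TPM at 5 d, and 31.4, 32.4 and 35.6 TPM in control mesocarp. Each 2 d and 5 d library stood above the 0 d libraries of its tissue, by a log2 fold change at 2 d of 1.06 ± 0.14 (SE, adjusted p = 7.17e-06) in epicarp and 0.95 ± 0.14 (SE, adjusted p = 4.26e-05) in mesocarp. The dehydroascorbate reductase 2 gene Solyc11g011250.3 showed the largest called change of this class. Its epicarp libraries held 12.9, 12.6 and 15.6 TPM at 0 d, 23.7, 22.6 and 22.5 TPM at 2 d, 27.3, 32.4 and 29.9 TPM at 5 d, and 20.7, 19.4 and 20.02 TPM in control epicarp. Its mesocarp libraries held 15.03, 16.5 and 12.2 TPM at 0 d, 24.6, 21.8 and 31.2 TPM at 2 d, 21.1, 27.2 and 30.1 TPM at 5 d, and 17.9, 24.7 and 19.2 TPM in control mesocarp.

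Its libraries at 2 d and 5 d did not overlap with those at 0 d in either tissue. The increase at 5 d was 1.24 ± 0.15 (SE, adjusted p = 7.08e-06) in epicarp and 0.99 ± 0.15 (SE, adjusted p = 1.44e-04) in mesocarp, and at 0 d it was lower than in control epicarp by -0.61 ± 0.15 (SE, adjusted p = 0.00887). Of the 2 glutathione reductase genes, Solyc09g065900.3 rose at 2 d in both tissues, by 0.47 ± 0.12 (SE, adjusted p = 0.00658) in epicarp and 0.67 ± 0.12 (SE, adjusted p = 5.90e-04) in mesocarp, the epicarp call being lost with the spread of its 2 groups alone (adjusted p = 0.0753). The other, Solyc09g091840.4, was lower at 2 d in epicarp by -0.50 ± 0.18 (SE, adjusted p = 0.0328). In epicarp at 0 d, replicate 3 had 54.4 TPM, and the call was lost without it (adjusted p = 0.329), and also without 2 d replicate 1 (adjusted p = 0.0916), replicate 2 (adjusted p = 0.0944) or replicate 3 (adjusted p = 0.0751). It was lost as well with the spread of those groups alone (adjusted p = 0.153) and without the filter (adjusted p = 0.0525).

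**Figure D4:**
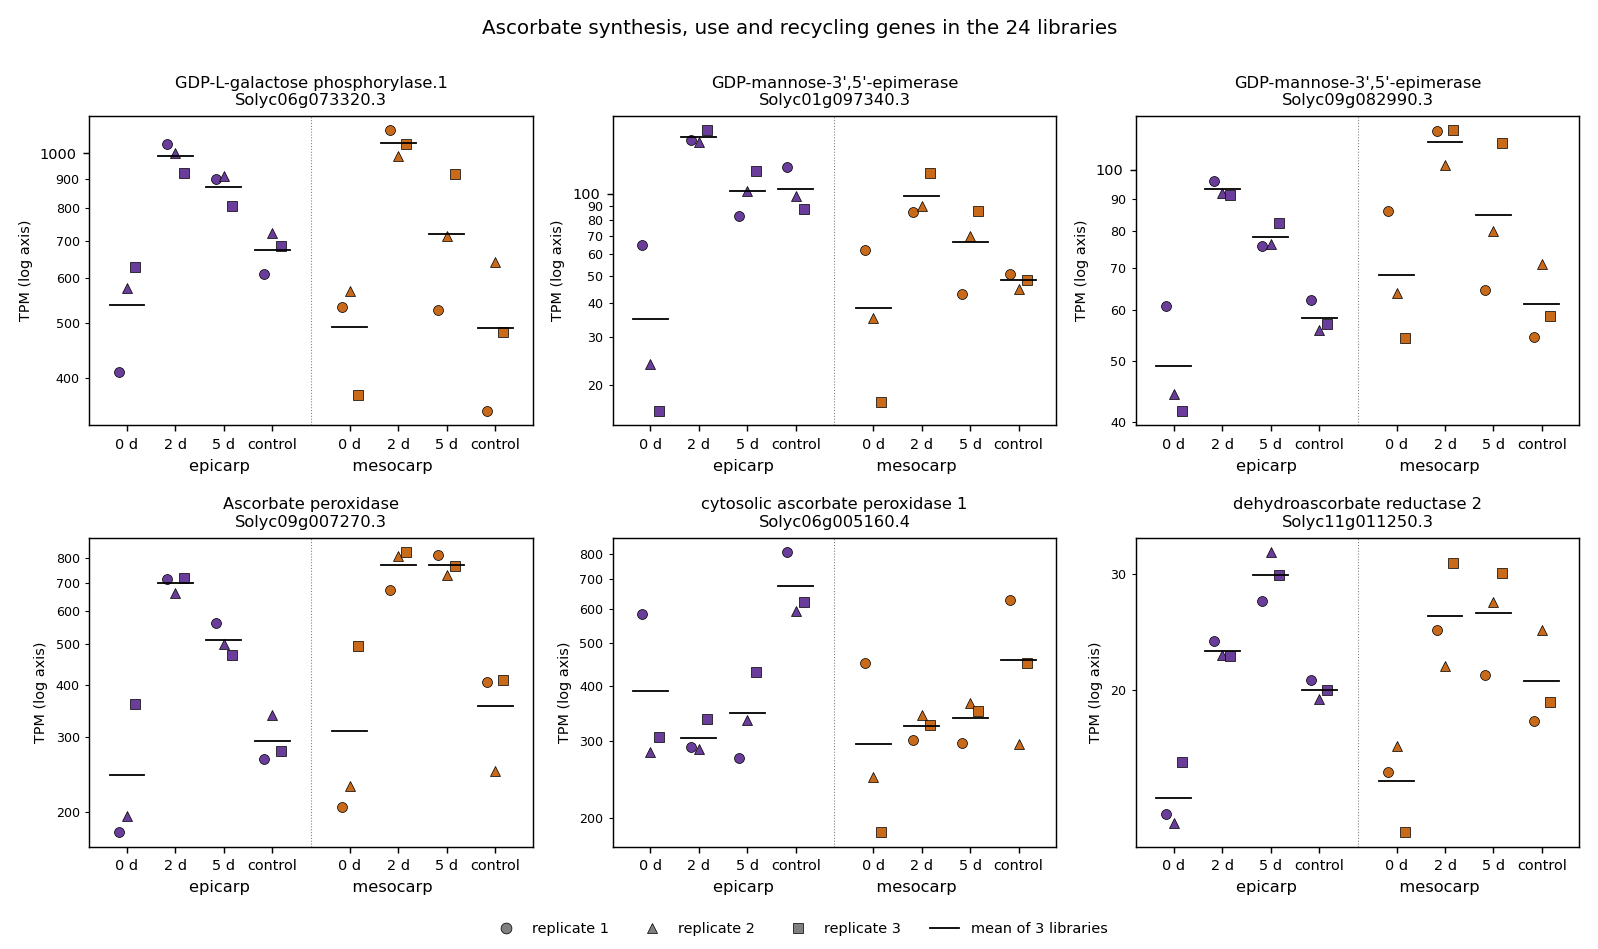
TPM on a log axis of 6 genes of ascorbate synthesis, use and recycling in every library (symbols by replicate, black bars for the mean of 3), for epicarp and mesocarp at 0 d, 2 d, 5 d and in control. GDP-L-galactose phosphorylase has 923 TPM or above in the libraries at 2 d, against 373 to 629 TPM at 0 d, whereas cytosolic ascorbate peroxidase 1 shows no called change.

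Plant glutathione peroxidases mostly take their electrons from thioredoxin, despite the name. Here 3 of the 9 genes rose at 2 d in each tissue (against 17.6% of all genes in epicarp and 13.3% in mesocarp), and the other 6 were not called at 2 d or 5 d over 0 d. Solyc08g080940.3, glutathione peroxidase like encoding 1, had the highest mean level. The epicarp values were 56.4, 43.5 and 96.3 TPM at 0 d, 153, 133 and 128 TPM at 2 d, 103, 91.1 and 106 TPM at 5 d, and 76.3, 94.4 and 75.8 TPM in control epicarp. The mesocarp values were 71.6, 67.1 and 91.3 TPM at 0 d, 155, 177 and 145 TPM at 2 d, 110.0, 122 and 132 TPM at 5 d, and 102, 63.2 and 98.02 TPM in control mesocarp. It rose at 2 d by 1.23 ± 0.22 (SE, adjusted p = 1.98e-04) in epicarp and 1.26 ± 0.22 (SE, adjusted p = 2.80e-04) in mesocarp.

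The gene Solyc08g006720.4 had the largest called change of the class at 2 d or 5 d over 0 d. Epicarp libraries gave 43.7, 35.4 and 37.1 TPM at 0 d, 102, 94.6 and 96.2 TPM at 2 d, 106, 135 and 126 TPM at 5 d, and 88.2, 83.6 and 92.3 TPM in control epicarp. Mesocarp libraries gave 52.6, 38.1 and 27.5 TPM at 0 d, 91.7, 120.3 and 132 TPM at 2 d, 81.2, 110.3 and 136 TPM at 5 d, and 51.7, 56.4 and 49.6 TPM in control mesocarp. No library at 2 d or 5 d overlapped with 0 d. At 0 d it was lower than in control epicarp by -1.24 ± 0.20 (SE, adjusted p = 3.59e-04), and it rose at 5 d over 0 d by 1.77 ± 0.20 (SE, adjusted p = 3.22e-06) in epicarp and 1.61 ± 0.20 (SE, adjusted p = 1.81e-05) in mesocarp. The phospholipid hydroperoxide glutathione peroxidase gene Solyc06g073460.4, whose type acts on lipid peroxides, rose at 2 d by 0.96 ± 0.17 (SE, adjusted p = 1.91e-04) in epicarp and 0.54 ± 0.17 (SE, adjusted p = 0.0235) in mesocarp. The mesocarp call was lost without 0 d replicate 2 (adjusted p = 0.0529), 2 d replicate 2 (adjusted p = 0.0848) or 2 d replicate 3 (adjusted p = 0.0919). The gene Solyc08g068800.4 had 4, 2 and 0 reads in epicarp at 0 d and no read in the other 9 epicarp libraries. There were, in mesocarp, 11, 21 and 1 reads at 0 d, 7, 26 and 13 reads at 2 d, 5, 3 and 3 reads at 5 d, and 21, 23 and 12 reads in control mesocarp. With 3 reads over the group as the floor and the mesocarp reads taken as exact, it was at least 19.6-fold lower in control epicarp than in control mesocarp.

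Peroxiredoxins are thiol peroxidases, several of them in plastids. Peroxiredoxin Q, encoded by Solyc07g042440.3, is a plastid form reduced by thioredoxin. In the skin its level was 20.01, 4.52 and 4.41 TPM at 0 d, 60.7, 51.8 and 57.7 TPM at 2 d, 48.6, 83.8 and 75.9 TPM at 5 d, and 49.6, 40.8 and 44.1 TPM in control epicarp. In the flesh its level was 16.1, 11.03 and 7.06 TPM at 0 d, 61.3, 66.3 and 89.7 TPM at 2 d, 25.97, 54.03 and 77.6 TPM at 5 d, and 21.6, 16.96 and 21.3 TPM in control mesocarp. In each tissue its 0 d libraries were below all others, and epicarp replicate 1 at 0 d stood above the other 2. The gap to control was narrow in mesocarp (at most 16.1 TPM, against at least 16.96 TPM), where no peroxiredoxin gene was called at 0 d against control.

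Against control epicarp, peroxiredoxin Q was lower at 0 d by -2.27 ± 0.48 (SE, adjusted p = 0.00315), a call lost with the spread of those 2 groups alone (adjusted p = 0.0896). At 2 d over 0 d it rose by 2.69 ± 0.49 (SE, adjusted p = 2.98e-04) in epicarp and 2.87 ± 0.49 (SE, adjusted p = 2.97e-04) in mesocarp, and at 5 d by 2.96 ± 0.49 (SE, adjusted p = 1.89e-04) in epicarp. The peroxiredoxin gene Solyc10g082030.2 also rose at 2 d. Skin libraries showed 55.98, 30.3 and 27.6 TPM at 0 d, 177, 155 and 155 TPM at 2 d, 119, 156 and 118 TPM at 5 d, and 75.6, 57.4 and 69.4 TPM in control epicarp. Flesh libraries showed 119, 67.3 and 48.6 TPM at 0 d, 156, 139 and 196 TPM at 2 d, 77.1, 121 and 142 TPM at 5 d, and 76.8, 96.99 and 81.4 TPM in control mesocarp. The increase at 2 d over 0 d was 2.23 ± 0.31 (SE, adjusted p = 1.99e-05) in epicarp and 1.26 ± 0.30 (SE, adjusted p = 0.00466) in mesocarp, where the call was lost with the spread of the 2 groups alone (adjusted p = 0.0608).

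The most abundant peroxiredoxin genes were not called as higher at 2 d. The chloroplast peroxiredoxin-2E gene Solyc10g083650.1 led by mean level. In epicarp it had 223, 213 and 360.1 TPM at 0 d, 213, 181 and 184 TPM at 2 d, 286, 349 and 321 TPM at 5 d, and 381, 303 and 354 TPM in control epicarp. In mesocarp it had 263, 262 and 389 TPM at 0 d, 303, 263 and 293 TPM at 2 d, 304, 345 and 398 TPM at 5 d, and 285, 188 and 252 TPM in control mesocarp. Its log2 fold change at 2 d over 0 d was -0.32 ± 0.20 in epicarp and 0.11 ± 0.20 in mesocarp (SE). Epicarp at 2 d lay below epicarp at 0 d without passing the test, and mesocarp at 2 d overlapped with mesocarp at 0 d. In mesocarp the 5 d libraries stood above those of control, by 0.78 ± 0.20 (SE, adjusted p = 0.00876). Solyc07g020860.3, described as peroxiredoxin, came next. Its epicarp libraries held 154, 149 and 219.7 TPM at 0 d, 116, 109.8 and 121 TPM at 2 d, 113, 122 and 136 TPM at 5 d, and 163, 169 and 164 TPM in control epicarp. Its mesocarp libraries held 234, 168 and 182 TPM at 0 d, 127, 162 and 135 TPM at 2 d, 162, 149 and 172 TPM at 5 d, and 286, 223 and 258 TPM in control mesocarp. It was lower at 2 d than at 0 d in epicarp by -0.45 ± 0.15 (SE, adjusted p = 0.0247). That call was lost without 0 d replicate 3 (adjusted p = 0.151) or without 2 d replicate 1 (adjusted p = 0.0673), replicate 2 (adjusted p = 0.0886) or replicate 3 (adjusted p = 0.0565). The 1-Cys peroxiredoxin gene, a type known from seeds, had 50 of its 61 reads in control mesocarp.

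Thioredoxin reductases divide into the ferredoxin enzyme of the chloroplast, which is driven by light, and NADPH enzymes. Both chains of the ferredoxin enzyme were measured. The variable chain gene Solyc01g087520.3 was the most abundant. The epicarp values were 79.6, 58.1 and 56.7 TPM at 0 d, 181, 164 and 162 TPM at 2 d, 167, 197 and 195 TPM at 5 d, and 115, 104 and 117 TPM in control epicarp. The mesocarp values were 114, 109 and 108 TPM at 0 d, 187, 208 and 233 TPM at 2 d, 187, 269 and 296 TPM at 5 d, and 116, 127 and 116 TPM in control mesocarp. In each tissue the 2 d and 5 d libraries stood above 0 d, and the 0 d libraries lay below control, widely in epicarp (at most 79.6 TPM, against at least 104 TPM) and narrowly in mesocarp (at most 114 TPM, against at least 116 TPM). On the fitted scale the change at 0 d against control was -0.84 ± 0.15 (SE, adjusted p = 8.87e-04) in epicarp and 0.00 ± 0.15 (SE, adjusted p = 0.999) in mesocarp, so the narrow gap in mesocarp was on the TPM scale alone. It rose at 5 d over 0 d by 1.63 ± 0.15 (SE, adjusted p = 3.74e-07) in epicarp and 1.33 ± 0.15 (SE, adjusted p = 6.07e-06) in mesocarp.

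The catalytic chain gene Solyc02g087230.3 was called at 5 d in both tissues. Epicarp libraries gave 20.1, 23.5 and 17.9 TPM at 0 d, 29.7, 24.8 and 25.7 TPM at 2 d, 30.6, 37.96 and 36.2 TPM at 5 d, and 27.8, 31.2 and 33.9 TPM in control epicarp. Mesocarp libraries gave 35.2, 33.9 and 27.5 TPM at 0 d, 27.7, 30.5 and 38.2 TPM at 2 d, 36.1, 45.01 and 61.5 TPM at 5 d, and 21.3, 24.02 and 25.5 TPM in control mesocarp. It rose at 5 d over 0 d by 0.87 ± 0.17 (SE, adjusted p = 9.17e-04) in epicarp, and by 0.71 ± 0.17 (SE, adjusted p = 0.00725) in mesocarp, a call lost without 5 d replicate 3 (adjusted p = 0.063). In mesocarp it was above control at 5 d by 1.27 ± 0.18 (SE, adjusted p = 5.25e-05). Among the genes described as thioredoxin reductase, Solyc10g080080.3 changed most. In the skin its level was 17.98, 10.7 and 12.5 TPM at 0 d, 36.9, 32.1 and 33.6 TPM at 2 d, 31.7, 37.2 and 34.8 TPM at 5 d, and 22.3, 19.6 and 24.4 TPM in control epicarp. In the flesh its level was 19.6, 15.7 and 11.7 TPM at 0 d, 33.2, 31.5 and 37.8 TPM at 2 d, 21.6, 31.6 and 43.97 TPM at 5 d, and 16.2, 23.8 and 22.96 TPM in control mesocarp. It rose at 2 d by 1.45 ± 0.23 (SE, adjusted p = 6.49e-05) in epicarp and 1.33 ± 0.23 (SE, adjusted p = 2.74e-04) in mesocarp, whereas Solyc02g082250.4 was called in none of the 12 comparisons.

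Summed levels of photosynthesis genes also differed between the groups. In mesocarp their sum at 0 d overlapped with control. The 185 genes described as photosystem or chlorophyll-binding, of which 107 to 112 had no read in a group, summed to 11101, 3734 and 6975 TPM in epicarp at 0 d, 22994 to 26950 TPM at 2 d, 25244 to 33250 TPM at 5 d and 17342 to 22491 TPM in control epicarp. In mesocarp they summed to 19480, 16426 and 9043 TPM at 0 d, 23744 to 30336 TPM at 2 d, 23059 to 49523 TPM at 5 d and 8374 to 11945 TPM in control mesocarp. Their part in the members' changes was not tested.

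**Figure D5:**
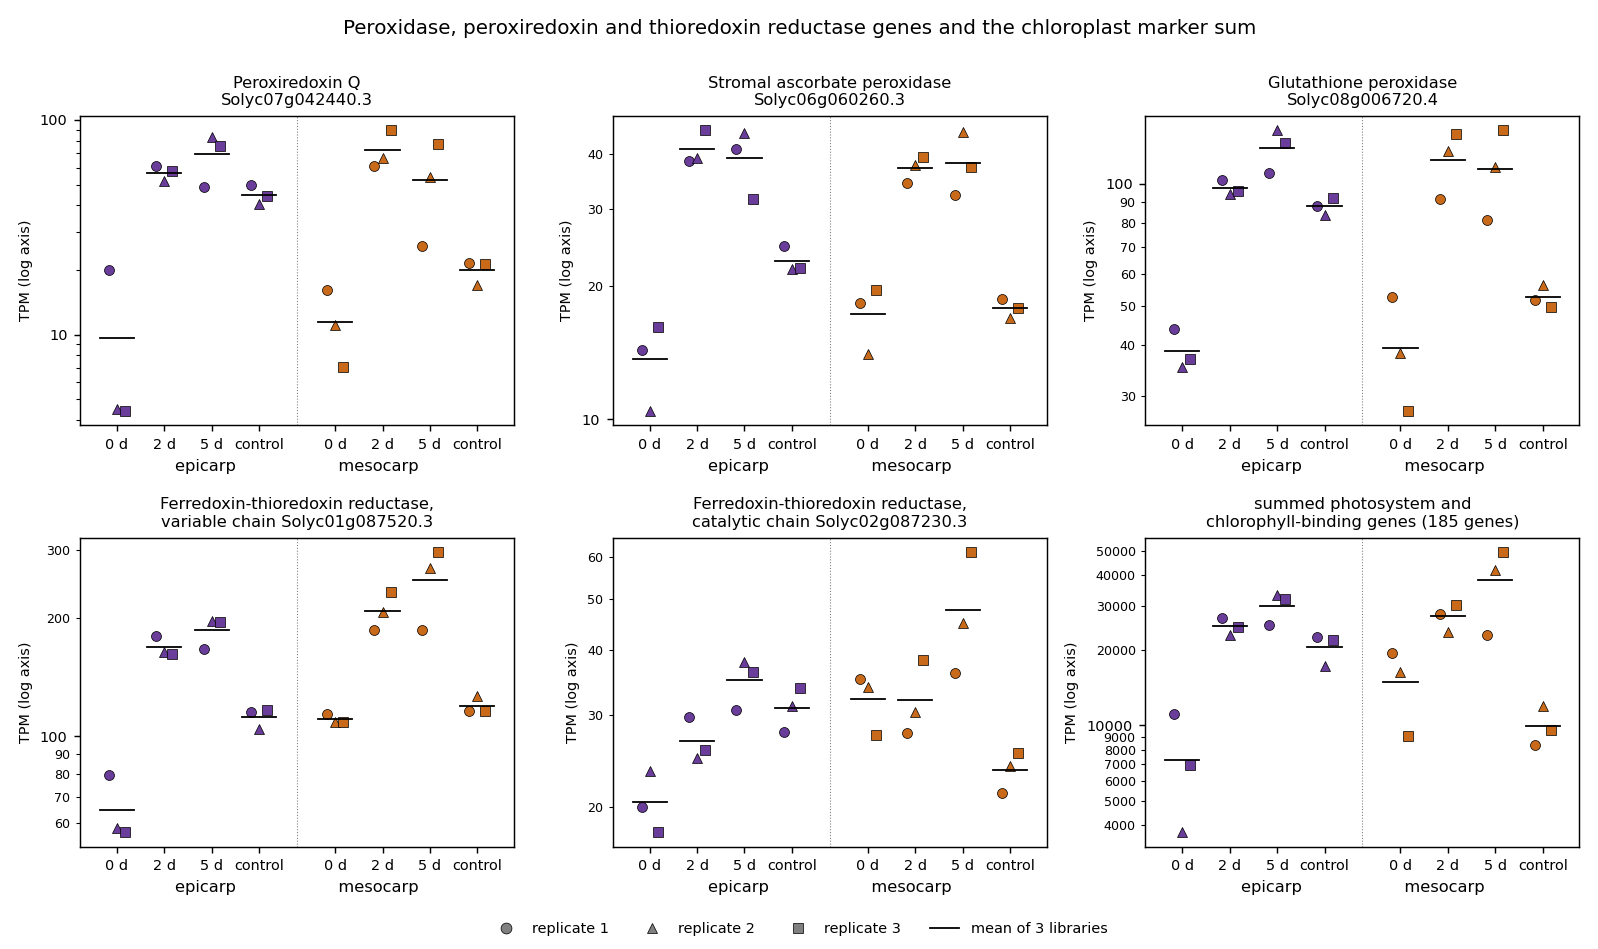
TPM on a log axis of 5 peroxidase, peroxiredoxin and thioredoxin reductase genes and of the summed 185 photosynthesis genes in every library (symbols by replicate, black bars for the mean of 3), for epicarp and mesocarp at 0 d, 2 d, 5 d and in control. In epicarp, peroxiredoxin Q is lower in the 3 libraries at 0 d than in the 3 of control, and the photosynthesis sum at 3734 to 11101 TPM at 0 d, against 17342 to 22491 TPM in control.

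Skin and flesh were compared within each condition. In control fruit, 13 of 54 genes were higher in epicarp than in mesocarp (24.1%, against 13.2% of all genes) and 9 were lower (16.7%, against 13.6%). Of these 22 calls, 11 held without each library in turn, and the count was 13 without epicarp replicate 1 and 14 without mesocarp replicate 3. The clearest of those higher in skin were superoxide dismutase 3 (Solyc11g066390.2), by 2.25 ± 0.40 (SE, adjusted p = 4.00e-04), the ethylene-responsive catalase gene Solyc02g082760.3, by 1.90 ± 0.31 (SE, adjusted p = 1.91e-04), and Superoxide dismutase [Cu-Zn] 1 (Solyc01g067740.3), by 0.96 ± 0.18 (SE, adjusted p = 5.29e-04). The phospholipid hydroperoxide glutathione peroxidase gene Solyc06g073460.4 was lower in skin, by -0.84 ± 0.17 (SE, adjusted p = 9.55e-04), as was the monodehydroascorbate reductase gene Solyc08g081530.3, by -0.72 ± 0.14 (SE, adjusted p = 8.35e-04).

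In covered fruit most calls had the skin lower. At 0 d, 1 gene was higher in epicarp than in mesocarp (1.85%, against 8.78% of all genes) and 9 were lower (16.7%, against 9.57%). At 2 d, 1 was higher (1.85%, against 8.2%) and 9 were lower (16.7%, against 10.3%). At 5 d, 1 was higher (1.85%, against 7.12%) and 4 were lower (7.41%, against 10.4%). These calls held without each library in turn for 6 of 10 at 0 d, 5 of 10 at 2 d and 1 of 5 at 5 d. The count at 0 d was 16 without epicarp replicate 1, and that at 2 d was 5 without epicarp replicate 2, 5 without epicarp replicate 3 and 6 without mesocarp replicate 2. At 5 d it was 1 to 3 without any library but mesocarp replicate 1. With the spread of the compared groups alone, 0, 22 and 11 genes were called at 0 d, 2 d and 5 d, and DESeq2 called 16 at 0 d and 12 at 5 d.

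In these 3 conditions skin and flesh libraries of the same replicate number deviated together, so the comparison was also made within pairs. The labels do not give this pairing. It was chosen after seeing the same data, so the paired p-values are not independent of that choice. Paired by replicate, 6 genes were higher and 18 lower in epicarp at 0 d (against 13.3% and 13.8% of all genes), 5 higher and 15 lower at 2 d (against 11.9% and 14.5%), and 6 higher and 9 lower at 5 d (against 11.1% and 14.8%). The iron superoxide dismutase gene Solyc06g048410.4 was lower in epicarp in every pair, by -1.25 ± 0.16 (SE, adjusted p = 1.82e-04) at 0 d, -0.91 ± 0.16 (SE, adjusted p = 0.00117) at 2 d and -0.83 ± 0.16 (SE, adjusted p = 0.00247) at 5 d in the paired fit. Unpaired, the call at 5 d missed the threshold (adjusted p = 0.0565). The phospholipid hydroperoxide glutathione peroxidase gene Solyc06g073460.4 was lower in every pair too, by -1.07 ± 0.12 (SE, adjusted p = 5.73e-05), -0.63 ± 0.12 (SE, adjusted p = 0.00169) and -0.59 ± 0.12 (SE, adjusted p = 0.00291) at 0 d, 2 d and 5 d. The catalase gene Solyc04g082460.4 was higher in epicarp in each pair, by 0.85 ± 0.21 (SE, adjusted p = 0.00951), 1.85 ± 0.21 (SE, adjusted p = 4.82e-05) and 1.18 ± 0.20 (SE, adjusted p = 0.00119). The catalase gene Solyc12g094620.3 was lower in epicarp by -1.32 ± 0.21 (SE, adjusted p = 5.80e-04) at 2 d and -1.38 ± 0.21 (SE, adjusted p = 4.98e-04) at 5 d when paired, where the unpaired fit gave adjusted p = 0.0593 and 0.0607.

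Whether the change under the dark cover differed between the tissues was tested as the log2 fold change of 0 d over control in epicarp minus that in mesocarp. It passed for 4 of 54 genes, all negative (7.41%, against 1.82% of all genes), where 0.744% of all genes passed as positive and 2.56% in either direction. Paired by replicate, with the control pairs included, 12 were negative and 2 positive (against 4.52% and 2.88%). The catalytic chain of ferredoxin-thioredoxin reductase (Solyc02g087230.3) had a difference of -1.20 ± 0.25 (SE, adjusted p = 0.0134), and it held without each library in turn. With the spread of those 4 groups alone none of the 4 passed. The count was 13 without epicarp 0 d replicate 1. It was 1 or 2 without epicarp 0 d replicate 2, mesocarp 0 d replicate 1, or control replicate 1 or 3 of either tissue.

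The same difference for 5 d over 0 d passed for none of the 54 genes by edgeR, where 0.0866% of all genes passed as positive, 0.107% as negative and 0.194% in either direction. At an unadjusted p below 0.05 there were 2 genes. DESeq2 called 1, the few-read gene Solyc02g083620.3, and the paired fit called 1, the peroxiredoxin gene Solyc10g082030.2, at 1.22 ± 0.25 (SE, adjusted p = 0.0351).

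Members of a class often lie side by side, and some such neighbours differed widely in level. In 6 pairs of the same class the genes lay within 50000 bases of each other. The iron superoxide dismutase gene Solyc06g048410.4 averaged 345 TPM over the 24 libraries and its neighbour Solyc06g048420.2 0.685 TPM, a ratio of 503. In the catalase pair Solyc04g082460.4 and Solyc04g082475.2 the means were 31.4 and 0.772 TPM. In the glutathione peroxidase pair Solyc12g056230.2 and Solyc12g056240.2 they were 58.9 and 12.9 TPM. The authors' counting may have split reads between such copies, so their separate levels are uncertain.

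The partners of these enzymes were drawn from the descriptions by words. Among thioredoxins and glutaredoxins, 73 of 119 genes were tested. After 2 d, relative to 0 d, 26 were higher and 7 lower in epicarp, and 19 were higher and 5 lower in mesocarp. Of all genes, 17.6% were higher and 19% lower in epicarp, and 13.3% higher and 10.8% lower in mesocarp. Their median log2 fold change was 0.33 in epicarp and 0.11 in mesocarp, beside -0.07 and -0.05 for all genes. At 0 d against control, 2 were higher and 15 lower in epicarp, and 1 was called in mesocarp, as higher. For that comparison, 10.1% of all genes were higher and 9.08% lower in epicarp, and 2.4% higher and 1.9% lower in mesocarp. The 2 thioredoxin genes with the largest change, Solyc05g006850.4 and Solyc05g006870.3, were read mainly in mesocarp: the first had 0 to 1.48 TPM in epicarp libraries and 1.02 to 219 TPM in mesocarp libraries. For both, 0 d replicate 3 had the lowest value of the 0 d libraries in each tissue.

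Genes that repair oxidised methionine, store iron or divert electrons numbered 14, of which 11 were tested. At 2 d over 0 d, 2 were higher and 1 lower in epicarp, and 2 were higher and 3 lower in mesocarp (all genes: 17.6% and 19% in epicarp, 13.3% and 10.8% in mesocarp), so that the epicarp share called higher was near that of all genes. A peptide methionine sulfoxide reductase MsrB gene, Solyc07g062060.3, had 14.3, 19.2 and 43.9 TPM at 0 d, 171, 166 and 147 TPM at 2 d, 149.8, 175 and 145 TPM at 5 d and 52.1, 59.5 and 47.1 TPM in control epicarp. Mesocarp values were 24.2, 30.6 and 41.9 TPM at 0 d, 197, 219.9 and 204 TPM at 2 d, 129, 171 and 170.3 TPM at 5 d and 31.5, 23.6 and 31.6 TPM in control mesocarp. The libraries at 2 d and 5 d lay above all others in both tissues, with a log2 fold change of 2.89 ± 0.29 (SE, adjusted p = 8.09e-07) at 2 d over 0 d in mesocarp. Further genes of ascorbate supply and oxidation numbered 37, of which 17 were tested. Relative to 0 d, at 2 d 1 was higher and 5 were lower in epicarp, and 4 were called in mesocarp, each as lower (all genes lower: 19% in epicarp, 10.8% in mesocarp).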

How the data were processed

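Total RNA from epicarp and mesocarp was sequenced as 150-base pairs, per the labels' protocols. The submitters' processing notes name Trimmomatic 0.39, featureCounts and DESeq2; the sources used here do not name an aligner or a strand setting. The deposited counts are whole read counts per gene on build SL4.0, made by the authors, for 34688 genes. The deposited TPM values, for 34689 genes, equal these reads per interval length, scaled per library. Among the count columns, 2 carry one name, mesocarp 2 d replicate 3, and were not used. Reads of mesocarp 2 d replicate 3 and 5 d replicate 3 were recovered from TPM, where all values came out whole within 0.01 reads; in the other 22 libraries the same step gave the deposited counts.

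Counts were fitted in edgeR 4.0.16 (R 4.3.3): TMM scaling, filterByExpr by group (leaving 19620 genes), a single model of 8 group means over 24 libraries, robust quasi-likelihood tests, and Benjamini-Hochberg adjustment within each of 14 contrasts at 0.05. The common dispersion was 0.119. Folds are first group over second on the log2 scale. Alternatives were DESeq2 1.42.0 and its size factors, no filter, the spread of the compared groups alone, a replicate block, a minimum fold of 2, and each library left out in turn. Tested on simulated data for epicarp 5 d over 0 d (19620 genes), the fit called 48 of 100 genes changed by a log2 fold of 1 and 86 of 100 changed by 2. The simulation gave each gene the same dispersion in all groups, so it lacked the wider spread of the 0 d libraries. Its changed genes were drawn only from those above a minimum mean count. Counts of 0 bound a gene at 3 reads by counting error alone.

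Replicate numbers paired skin and flesh by their shared deviations, not by the labels: at 0 d the correlations of same-numbered libraries spanned 0.385 to 0.644. The 2 d pairs gave 0.124 to 0.171, the 5 d pairs 0.194 to 0.305. Control pairs, at 0.045 to 0.212, did not all pass 0.1, and no paired result is given for skin against flesh in control. The paired fit of the tissue difference in darkness did include the control pairs. Replicate numbers did not pair conditions within a tissue.

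Members, lists and tests were chosen with earlier results of these data known. In each class, values in every library are given for the 2 genes of highest mean level and the 2 of largest called change over the 14 contrasts; other lists name up to 2 genes of largest called change. No member identifier matched the reference gene table, so names are those of the deposited descriptions. Tables were handled in Python 3.11.15 using numpy 2.4.6 and pandas 2.3.3.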

Additional observations from a re-analysis of the deposited data

Results flagged for a closer look

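The change under the dark cover, 0 d over control, differed between epicarp and mesocarp past the threshold for 4 antioxidant genes by a test of the difference itself (edgeR, adjusted over all tested genes). In each, the epicarp change minus the mesocarp change was negative. For superoxide dismutase 3 (Solyc11g066390.2) the difference was -2.20 ± 0.55 (SE, adjusted p = 0.0359): the log2 fold change at 0 d was -0.07 ± 0.38 in epicarp and 2.14 ± 0.40 in mesocarp (SE). For the catalytic chain of ferredoxin-thioredoxin reductase (Solyc02g087230.3) it was -1.20 ± 0.25 (SE, adjusted p = 0.0134), with -0.64 ± 0.17 in epicarp and 0.56 ± 0.17 in mesocarp (SE). For the superoxide dismutase gene Solyc02g021140.3 it was -1.04 ± 0.25 (SE, adjusted p = 0.0317), with -1.20 ± 0.18 in epicarp and -0.16 ± 0.18 in mesocarp (SE). For the variable chain of ferredoxin-thioredoxin reductase (Solyc01g087520.3) it was -0.84 ± 0.21 (SE, adjusted p = 0.0402), with -0.84 ± 0.15 in epicarp and 0.00 ± 0.15 in mesocarp (SE).

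When each of the 12 libraries was left out in turn, the adjusted p of Solyc02g087230.3 stayed between 0.0051 and 0.0375. The call of Solyc11g066390.2 was lost without 8 of the libraries, that of Solyc02g021140.3 without 6 and that of Solyc01g087520.3 without 9. The highest adjusted p from edgeR was 0.0897 for Solyc11g066390.2 (without control epicarp replicate 2), 0.0774 for Solyc02g021140.3 (without epicarp 0 d replicate 2) and 0.087 for Solyc01g087520.3 (without control epicarp replicate 3). With the spread of the 4 groups alone the adjusted p was 0.0506, 0.0595, 0.202 and 0.133 for Solyc11g066390.2, Solyc02g087230.3, Solyc02g021140.3 and Solyc01g087520.3. Paired by replicate with the control pairs included, a choice made after seeing the data, it was 0.00223, 0.00318, 0.010 and 0.0148 in the same order. A replicate block across all conditions gave 0.0464, 0.0181, 0.0439 and 0.0574, so that the call of Solyc01g087520.3 was lost.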

How the results depend on the processing

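For 217 called fold changes the alternatives gave 2457 values, of which 2088 kept direction and call, 369 kept direction but lost the call and 0 reversed. The number of antioxidant genes called moved by over 1.5 times under these alternatives. With the spread of the compared groups alone it was 10 for epicarp and 0 for mesocarp at 0 d against control, 7 for mesocarp at 5 d over 0 d, 21 for epicarp at 5 d against control, 0, 22 and 11 between tissues at 0 d, 2 d and 5 d, and 0 for the tissue difference in darkness. With a minimum fold of 2 it was 9 for epicarp at 0 d against control, 16 for mesocarp at 2 d, 19 for epicarp and 12 for mesocarp at 5 d over 0 d, 4 for epicarp and 14 for mesocarp at 5 d against control, and 10, 6, 4 and 2 between tissues in control, at 0 d, 2 d and 5 d. DESeq2 called 5 for mesocarp at 0 d against control, 16 and 12 between tissues at 0 d and 5 d, 9 for the tissue difference in darkness and 1 for that at 5 d. A replicate block gave 9 between tissues at 5 d and otherwise stayed within 1.5 times. The replicate block within condition, chosen after seeing the data, gave 24, 20 and 15 between tissues at 0 d, 2 d and 5 d, 14 for the tissue difference in darkness and 1 for that at 5 d. The cause of these shifts was not tested.

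Leaving out single libraries gave 14 to 21 and 2 to 6 calls at 0 d against control in epicarp and mesocarp, 26 to 32 and 21 to 27 at 2 d over 0 d, 25 to 31 and 17 to 22 at 5 d over 0 d, and 4 to 10 and 16 to 26 at 5 d against control. Calls between tissues then numbered 13 to 16 in control and 7 to 16 at 0 d. The 2 d count lay between 5 and 8 and the 5 d count between 1 and 5. The tissue difference then gave 1 to 13 in darkness and 0 to 1 at 5 d. Precision is limited by 3 libraries per group and by the spread of the 0 d libraries; genes with under 1000 reads in all have unreliable fold changes.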

Other observations

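Enzymes that produce superoxide or hydrogen peroxide, and other genes described as peroxidase, were called in both directions at 2 d over 0 d, where 17.6% of all genes were higher and 19% lower in epicarp, and 13.3% higher and 10.8% lower in mesocarp. Of 38 genes described as NADPH, glycolate, hydroxyacid, acyl-CoA or amine oxidases, 23 were tested. At 2 d over 0 d, 7 were higher and 4 lower in epicarp, and 5 were higher and 1 lower in mesocarp (edgeR). At 5 d against control, the calls numbered 7 in epicarp and 6 in mesocarp, each as higher (all genes higher: 8.42% in epicarp, 12.6% in mesocarp). The polyamine oxidase gene Solyc01g087590.3 had 0.0423, 0 and 0.0227 TPM in epicarp at 2 d and 0.396, 18.6 and 4.71 TPM at 0 d, where replicate 2 was the highest. The NADPH oxidase gene Solyc08g081690.3, of a family that makes superoxide at the plasma membrane, had 0.0286, 0 and 0 TPM in control epicarp and 6.31, 4.52 and 5.23 TPM in control mesocarp.

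Of 123 other genes described as peroxidase, 43 were tested. At 2 d over 0 d, 7 were higher and 8 lower in epicarp, and 8 were higher and 4 lower in mesocarp; the epicarp shares are near those of all genes. Their median log2 fold change was -0.26 in epicarp and -0.14 in mesocarp, on the opposite side of zero from the antioxidant members. Between tissues in control, 6 were higher and 11 lower in epicarp (all genes: 13.2% and 13.6%). The peroxidase gene Solyc06g076630.3 had 0, 0 and 0 TPM in epicarp at 2 d and 27.4, 28.01 and 33.9 TPM in mesocarp at 2 d. Of 5 genes drawn by the words for glutathione synthesis, 3 were tested, and 1 of them, Solyc12g056840.2, described as a phosphopantothenate-cysteine ligase-like protein, rose at 2 d over 0 d in mesocarp by 0.74 ± 0.22 (SE, adjusted p = 0.0191).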
